A study of Mus musculus with 12 samples.

Results

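RNA from 2 amygdala regions, basolateral (BLA) and central (CeA), of 129S1/SvImJ mice (S1) was compared between animals taken through fear extinction (Ext) and animals that were fear-conditioned without extinction (FC). The comparison used 4 of the 12 libraries of the study, chosen by their labels alone: S1 Ext BLA and S1 Ext CeA against S1 FC BLA and S1 FC CeA, paired by region. All were labelled as male wild-type mice. The other 8 libraries were the naive S1 mice and the naive, conditioned and extinguished C57BL/6 mice (B6) in the same regions. Each combination of strain, region and condition was 1 library, and the number of mice behind a library is not in the labels. The study used S1 mice as a strain with impaired extinction, and the comparison asks how amygdala transcripts of that strain differed once extinction training had followed conditioning. The 4 extinction libraries were deposited in a table of their own, so extinction and anything particular to that table cannot be told apart.

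Fear conditioning pairs a neutral cue with a shock, and extinction is the later loss of the fear response when the cue is given without the shock. The BLA holds mostly glutamatergic projection neurons, in which NMDA receptor currents are needed for the acquisition of both fear and extinction. The CeA holds mostly GABAergic neurons and drives freezing. Potassium channels set how readily these neurons fire, glucocorticoid signalling follows stressful training, and myelin and ribosomal genes report on oligodendrocytes and on the protein synthesis machinery.

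Total counts were 47913126 in S1 FC BLA, 52631712 in S1 FC CeA, 61695302 in S1 Ext BLA and 55869170 in S1 Ext CeA. Levels below are in CPM, which are counts scaled to library size with the trimmed mean of M values; in these libraries 3 counts are worth 0.0486 to 0.0626 CPM without that factor. Of the markers of the labelled regions, Slc17a7, the vesicular glutamate transporter of BLA projection neurons, had 1940 CPM in S1 FC BLA and 1898 CPM in S1 Ext BLA. In the CeA it had 91.5 CPM after conditioning, against 12.3 CPM after extinction and 16.4 CPM in naive mice. Prkcd, a kinase of lateral CeA neurons, had 272 CPM in S1 FC CeA and 181 CPM in S1 Ext CeA, and 10.6 CPM in each BLA library. Most CeA neuron markers went the other way, with 11 of 15 above 0 over both regions. Their summed level was 3568 CPM in S1 FC CeA and 4177 CPM in S1 Ext CeA. Rn45s, the precursor of ribosomal RNA that poly(A) selection should remove, took 0.154% of counts in S1 FC BLA (95% Wilson interval 0.153 to 0.156) and 1.706% in S1 FC CeA (1.703 to 1.71), but 0.0453% in S1 Ext BLA (0.0448 to 0.0459) and 0.0502% in S1 Ext CeA (0.0497 to 0.0508). These intervals cover counting error only. Over the study it took 0.154% to 1.706% in the 8 naive and conditioned libraries and 0.0307% to 0.0538% in the 4 extinction libraries, with no overlap. The other 11 tested RNAs that normally carry no poly(A) tail together had 20.6 and 39.7 CPM after conditioning (BLA and CeA) and 26.9 and 42.6 CPM after extinction.

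After extinction the S1 libraries had more falls than rises. The falls included the NMDA receptor subunits Grin2b and Grin2a, 4 of the 21 listed potassium channel genes and Kcng3, a channel gene not on that list. The rises included 11 ribosomal protein and 4 oligodendrocyte marker genes. Of 16523 genes tested over both regions, 143 were lower after extinction (0.865%) and 44 were higher (0.266%) by edgeR's quasi-likelihood test at an adjusted p under 0.05, or 1.13% in all. At least 2-fold changes were found in 60 of the falls and 5 of the rises, and the median change was −0.86 on the log2 scale among the falls and 0.67 among the rises. The median over all genes was 0.00. All 187 had the same sign in BLA and CeA. Such agreement is largely built into the test, in which regions that move apart give a smaller mean difference and a wider spread. Once a trend on transcript length had been taken out of each library, 53 genes were lower (0.321%) and 6 higher (0.0363%), or 0.357% in all, and 51 of the 143 falls and 3 of the 44 rises were still called. The count of 187 rests on several libraries. It was 1 without S1 FC CeA, 3 without S1 Ext BLA, 8 without S1 FC BLA, 11 without S1 Ext CeA, 10 without B6 FC BLA and again without B6 FC CeA, 27 when S1 naive BLA was dropped and 26 when S1 naive CeA was. Dropping a naive or extinction B6 library raised it, to 1350 (B6 naive BLA), 1331 (B6 naive CeA), 2012 (B6 Ext BLA) and 2002 (B6 Ext CeA). All 46 called genes that the naming rule or the lists chose passed in the latter 4 fits, 9 passed without a naive S1 library, 4 without S1 FC BLA or a conditioned B6 library, and Grin2b alone without S1 FC CeA, S1 Ext BLA or S1 Ext CeA.

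**Figure D1:**
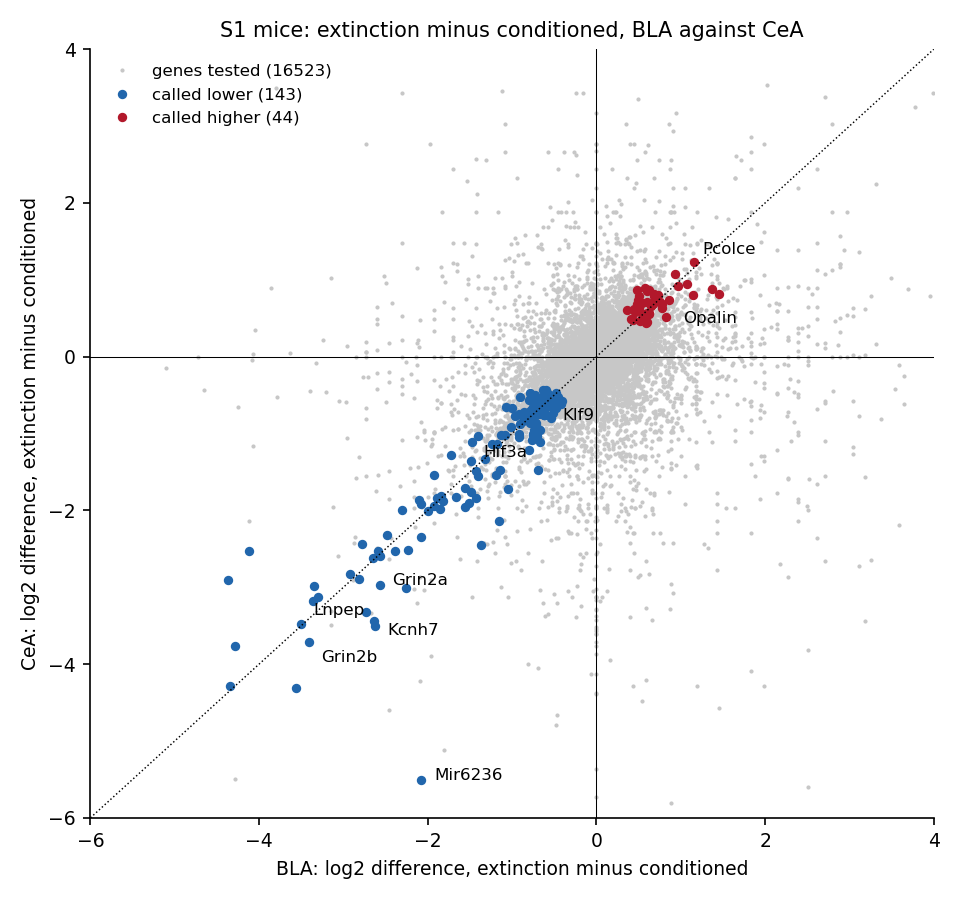
Log2 difference between the extinction and the conditioned library of S1 mice in the BLA (horizontal) and the CeA (vertical) for each gene tested. Grey points are genes not called, coloured points the 143 genes called lower and the 44 called higher over both regions, the dotted line marks equal differences, and 18 genes lie outside the axes. The called genes lie in the lower left and upper right corners, with Mir6236 farthest from the dotted line among the genes labelled.

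The fall with the smallest p was that of Grin2b, which encodes the GluN2B subunit of the NMDA receptor and lies on chromosome 6 at 135729805 to 136173511 (mm10; Gene_ID 14812). It had 30.1 CPM in S1 FC BLA and 33.2 CPM in S1 FC CeA, against 2.80 CPM in S1 Ext BLA and 2.502 CPM in S1 Ext CeA. The naive S1 libraries, with 25.7 CPM in BLA and 16.8 CPM in CeA, lay with the conditioned ones, far above both extinction libraries. The difference was 12.01-fold (log2 −3.59 ± 0.20 SE, adjusted p = 0.002, lower in 2 of 2 regions). Leaving out each of the 12 libraries in turn gave log2 differences of −3.85 to −3.30, each past the threshold. B6 mice had 12.5 and 7.38 CPM after conditioning and 2.62 and 2.01 CPM after extinction (log2 −2.07 ± 0.20, adjusted p = 0.072). Naive B6 mice had 22.7 and 12.6 CPM, so in B6 the conditioned libraries lay below the naive ones.

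Grin2a, the GluN2A subunit, had 20.7 CPM in S1 FC BLA and 11.99 CPM in S1 FC CeA, and 3.45 and 1.501 CPM after extinction. Both extinction libraries were below every naive and conditioned S1 library, and the fall was 6.92-fold (log2 −2.79 ± 0.29, adjusted p = 0.016). Grin1, the obligatory subunit of the same receptor, had 672 and 722 CPM after conditioning and 661 and 699 CPM after extinction (log2 −0.04 ± 0.10, adjusted p = 0.87). Of 34 glutamate transmission genes tested, Grin2a and Grin2b fell and 0 rose, beside 0.865% of all genes called lower. The list's median was −0.24, and −0.05 with the length trend taken out, where both genes still passed. Grin2a did not pass without any 1 of the 6 conditioned libraries and extinction S1 libraries, namely B6 FC and S1 FC of either region and S1 Ext of either region.

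Of 27 GABA transmission genes, 1 fell and 0 rose, against 0.865% of all genes called lower, with a list median of −0.08. The gene was Gabrb1, the β1 subunit of the GABA-A receptor, with 20.9 CPM in S1 FC BLA and 30.8 CPM in S1 FC CeA against 9.45 and 11.1 CPM after extinction. Both extinction libraries were below all conditioned and naive S1 libraries, and the fall was 2.49-fold (log2 −1.31 ± 0.15, adjusted p = 0.019). The receptor subunits Gabra2 (log2 −0.62 ± 0.14, adjusted p = 0.069) and Gabrb2 (−0.62 ± 0.13, adjusted p = 0.058) missed the threshold. Of the GABA-synthesizing enzymes, Gad1 had 452 and 802 CPM after conditioning and 486 and 860 CPM after extinction, and Gad2 had 274 and 860 CPM against 272 and 879 CPM (adjusted p = 0.42 and 0.96). Gabrb1 was lost without the same 6 libraries as Grin2a.

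Among 21 voltage-gated potassium channel genes, 4 fell and 0 rose, beside 0.865% of all genes called lower, with a list median of −0.25 that became 0.06 without the length trend. Kcnh7, an ERG-type channel subunit, had 9.13 and 5.32 CPM after conditioning and 1.45 and 0.43 CPM after extinction (log2 −3.12 ± 0.32, adjusted p = 0.016). Kcnma1, the pore of the large-conductance calcium-activated channel, had 95.9 and 51.8 CPM against 27.1 and 14.01 CPM (log2 −1.86 ± 0.30, adjusted p = 0.041). Kcnq3, a subunit of the M-current channel, had 38.3 and 24.2 CPM against 9.07 and 6.403 CPM (log2 −2.00 ± 0.27, adjusted p = 0.03). In each of these 3 genes the extinction library was the lowest S1 library of its region, and all 3 also passed with the length trend taken out. Kcnd3, which carries A-type current, fell by 0.58 ± 0.08 (adjusted p = 0.034) and did not pass with that trend taken out (adjusted p = 0.18). Adra1a, the α1A adrenergic receptor, was the 1 member called among 21 monoamine receptor genes, again beside 0.865% of all genes called lower. It had 6.56 and 11.9 CPM after conditioning and 2.41 and 3.30 CPM after extinction (log2 −1.66 ± 0.27, adjusted p = 0.042, and 0.052 without the length trend). Of these 5 genes, Kcnh7 alone was called without S1 FC BLA, S1 naive BLA or S1 naive CeA, and none without a conditioned B6 library, S1 FC CeA, S1 Ext BLA or S1 Ext CeA.

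**Figure D2:**
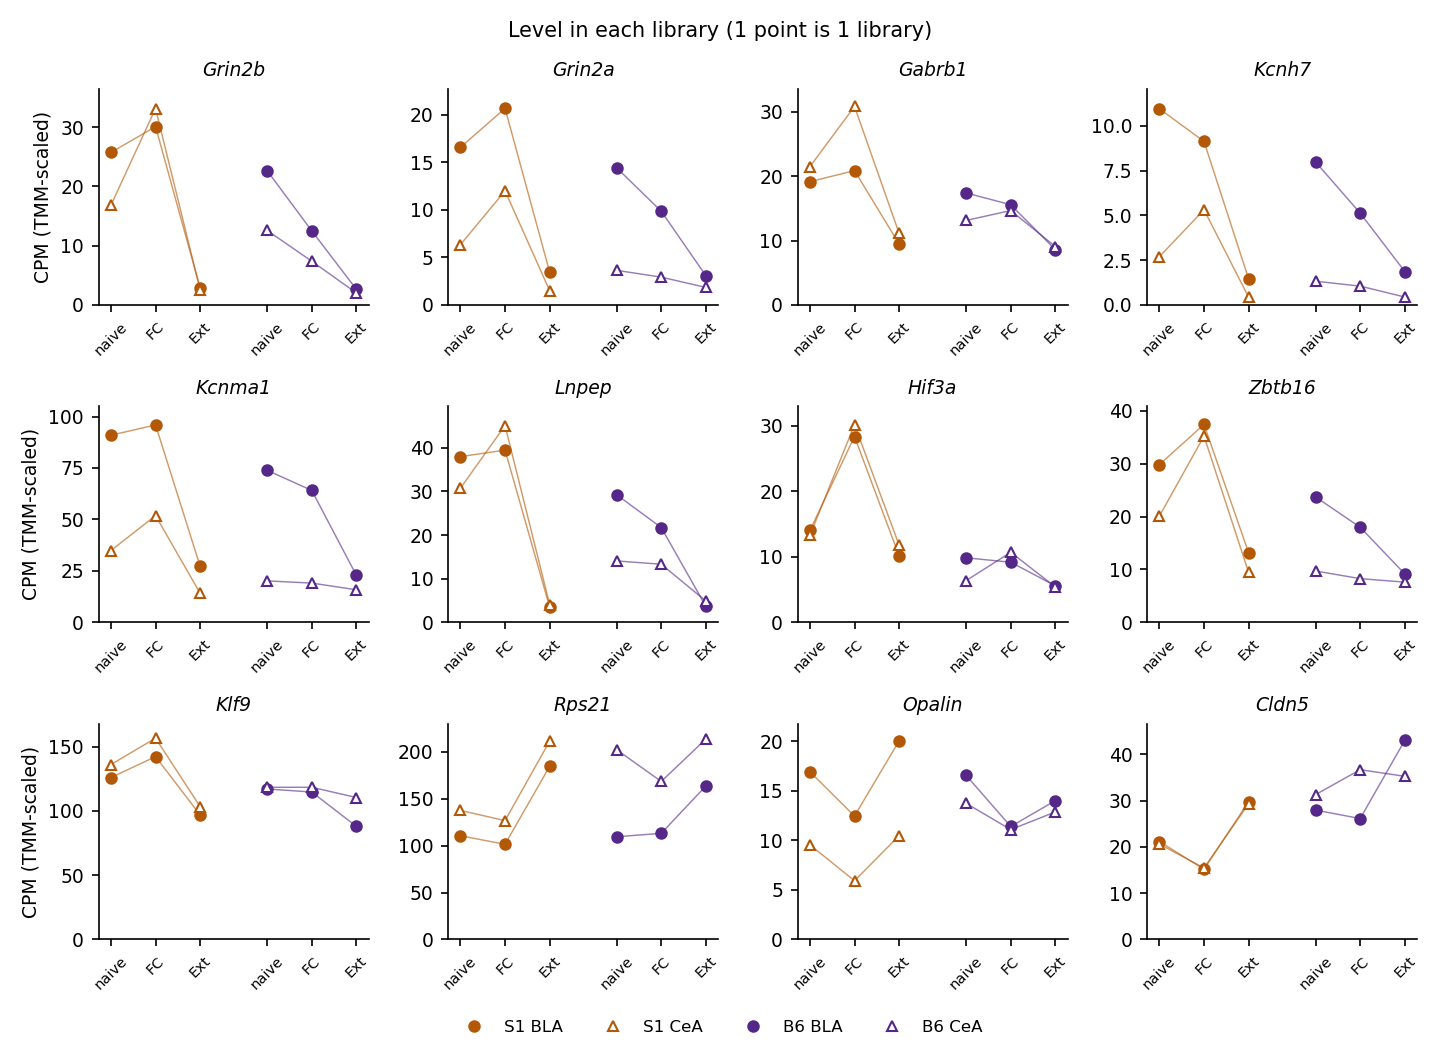
Level of 12 genes in each S1 (orange) and B6 (purple) library, in CPM scaled by the trimmed mean of M values; circles are BLA, open triangles CeA, and the lines join naive, conditioned (FC) and extinction (Ext) libraries of 1 strain and region. In S1 mice the extinction libraries are the lowest for Grin2b through Klf9 and the highest of their region for Rps21, Opalin and Cldn5.

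The remaining large falls were in genes of protein turnover, lipid signalling and gene regulation. Lnpep, the insulin-regulated aminopeptidase that cleaves oxytocin and vasopressin, had 39.5 and 45.1 CPM in S1 FC BLA and CeA and 3.44 and 4.02 CPM after extinction (log2 −3.50 ± 0.32, adjusted p = 0.011). Dgkh, a diacylglycerol kinase, had 18.6 and 23.9 CPM against 2.97 and 2.17 CPM (−3.06 ± 0.24, adjusted p = 0.0056). Tmem245, a membrane protein gene, had 15.5 and 19.8 CPM against 2.29 and 1.93 CPM (−3.06 ± 0.25, adjusted p = 0.007). For these 3 the naive S1 libraries, at 30.7 CPM or more for Lnpep, 15.1 or more for Dgkh and 11.96 or more for Tmem245, were again well above the extinction libraries. Cbl, a ubiquitin ligase of receptor tyrosine kinases, fell by 3.22 ± 0.57 (adjusted p = 0.049), Hipk2, a nuclear kinase, by 3.28 ± 0.59 (adjusted p = 0.0497) and Zbed6, a transposon-derived repressor, by 3.16 ± 0.46 (adjusted p = 0.034). Zbed6 lies within another gene, so its reads may be shared with it. These 3 were lost without any 1 S1 or conditioned B6 library, Lnpep without S1 FC BLA, S1 FC CeA, S1 Ext BLA or S1 Ext CeA, and Dgkh and Tmem245 without the last 3 of these.

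Other large falls rested on few reads after extinction. Kcng3, a modulatory potassium channel subunit, had 73 and 148 counts in S1 FC BLA and CeA and 6 and 6 counts after extinction (log2 −4.37 ± 0.53, adjusted p = 0.027), and Gdap10 had 95 and 95 counts against 5 and 16 (−3.51 ± 0.56, adjusted p = 0.041). Both genes were lower in both regions, and 3 of their 4 extinction values are 5 or 6 counts. Mir6236 is a microRNA gene of 123 bases on chromosome 9 at 110281287 to 110281409. Its annotated mature sequence is shown to identify the gene, which was among the largest falls, with the seed (bases 2 to 8) in capitals, from RefSeq (GRCm38.p6, chr9:110281353-110281371, plus strand).
mmu-miR-6236: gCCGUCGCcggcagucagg
The mature RNA itself was not measured. The Mir6236 gene had 28 counts in S1 FC BLA and 259 in S1 FC CeA, against 7 and 4 after extinction (log2 −4.46 ± 0.79, adjusted p = 0.0496). S1 FC BLA was the lowest and S1 FC CeA the highest of the 8 naive and conditioned libraries for this gene, as they were for Rn45s. Kcng3, Gdap10 and Mir6236 were lost without any 1 S1 or conditioned B6 library.

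Glucocorticoid-responsive genes had 3 of 16 members lower after extinction (0.865% of all genes were) and 0 higher, with a list median of −0.30. Hif3a, a hypoxia-inducible factor subunit that corticosteroids induce, had 28.3 CPM in S1 FC BLA and 30.1 CPM in S1 FC CeA, and 10.1 and 11.7 CPM after extinction. The naive S1 libraries had 13.99 and 13.2 CPM, so the conditioned libraries were the high ones and the extinction libraries lay slightly under naive (log2 −1.42 ± 0.18, adjusted p = 0.028). Zbtb16, a zinc finger transcription factor, had 37.4 and 35.2 CPM against 13.1 and 9.41 CPM, with 29.8 and 20.1 CPM in naive mice (−1.71 ± 0.23, adjusted p = 0.03). Klf9, a transcription factor induced by corticosterone in neurons, had 142 and 156 CPM against 96.7 and 103 CPM, with 126 and 136 CPM in naive mice (−0.58 ± 0.10, adjusted p = 0.042).

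All 3 of these genes were still called with the length trend taken out, where the list's median was −0.39. Of the members not called, Plin4, a lipid droplet gene, had 14.7 and 11.8 CPM after conditioning, 7.19 and 6.58 CPM after extinction and 3.62 and 1.97 CPM in naive mice (log2 −0.94 ± 0.24, adjusted p = 0.081). Fkbp5, the cochaperone that dampens the glucocorticoid receptor, had 67.6 and 121 CPM against 62.7 and 111 CPM (−0.11 ± 0.09, adjusted p = 0.50). None of the 3 called genes passed without any 1 S1 or conditioned B6 library.

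Immediate early genes, which neurons transcribe within minutes of firing, had 0 of 29 members called, a median of −0.05 and single differences of −0.52 to 0.43. Fos had 8.89 and 10.4 CPM after conditioning and 9.22 and 8.75 CPM after extinction, and Arc had 50.8 and 44.3 CPM against 52.0 and 32.3 CPM. The lowest p among those shown belonged to Fosb (16.7 and 17.9 CPM against 12.7 and 11.4 CPM, log2 −0.52 ± 0.11, adjusted p = 0.063). Nr4a1 lay on the other side (44.5 and 39.98 CPM against 60.0 and 53.1 CPM, 0.42 ± 0.10, adjusted p = 0.072). The labels do not give the time between training and tissue collection.

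Ribosomal protein genes held more of the rises than any other list. Of 79 tested, 11 rose and 0 fell, against 0.266% of all genes called higher, and 78 were above 0 in both regions, as were 6193 of the 16523 genes tested. Rps21, of the small subunit, had 102 CPM in S1 FC BLA and 127 CPM in S1 FC CeA, and 185 and 212 CPM after extinction (log2 0.80 ± 0.12, adjusted p = 0.034). Rpl36, of the large subunit, had 69.3 and 76.1 CPM against 115 and 132 CPM (0.77 ± 0.10, adjusted p = 0.028). In both genes the extinction library was the highest S1 library of its region. Rplp1, Rplp2, Rpl8, Rpl37, Rpl37a, Rps12, Rps15 and Rps29 rose by 0.53 to 0.69. Summed over the list, the level was 12480 CPM in S1 FC BLA and 15005 CPM in S1 FC CeA, 16280.4 and 19646.6 CPM after extinction, and 12758 and 17402 CPM in naive mice. The list's median was 0.37, but 0.08 with the length trend taken out, where 0 of the 11 passed; its median transcript was 703 bases long, against 2793 bases over all genes. Ribosomal protein genes have many processed copies in the genome, and how such reads were assigned is not given in the sources used here. All 11 lost the threshold without any 1 S1 or conditioned B6 library.

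Promoter windows are shown for 3 of these 11 genes because the members moved together, and they hold the core of the ETS-family motif, searched as CTTCCGG or its complement CCGGAAG on either strand and written in capitals. The windows are RefSeq's (GRCm38.p6, plus strand), chr7:141447401-141447700 for Rplp2, chr15:5116363-5116662 for Rpl37 and chr2:180257199-180257498 for Rps21, and run from upstream of the start site into the first transcribed bases.
Rplp2: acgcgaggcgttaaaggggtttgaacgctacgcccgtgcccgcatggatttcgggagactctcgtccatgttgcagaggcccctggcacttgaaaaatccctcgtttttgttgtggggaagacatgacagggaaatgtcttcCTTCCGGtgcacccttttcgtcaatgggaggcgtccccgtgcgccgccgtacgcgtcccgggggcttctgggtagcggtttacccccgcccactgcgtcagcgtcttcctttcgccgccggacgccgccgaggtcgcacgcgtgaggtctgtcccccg
Rpl37: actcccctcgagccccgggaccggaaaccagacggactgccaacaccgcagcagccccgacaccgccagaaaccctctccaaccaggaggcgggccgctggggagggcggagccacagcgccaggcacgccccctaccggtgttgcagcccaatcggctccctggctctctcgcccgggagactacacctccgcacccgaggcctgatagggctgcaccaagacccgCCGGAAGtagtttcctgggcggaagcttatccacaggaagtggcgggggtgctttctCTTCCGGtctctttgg
Rps21: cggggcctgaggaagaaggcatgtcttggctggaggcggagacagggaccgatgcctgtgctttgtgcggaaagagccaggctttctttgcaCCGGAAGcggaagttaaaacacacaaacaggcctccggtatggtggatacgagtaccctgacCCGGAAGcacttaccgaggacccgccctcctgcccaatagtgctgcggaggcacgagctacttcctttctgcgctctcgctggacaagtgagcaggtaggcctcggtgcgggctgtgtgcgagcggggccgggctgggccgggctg
The letters were present in the windows of 24 of 58 ribosomal protein genes (41.4%) and 3 of the 6 called ones that had a window, against 9.93% of 27025 genes. The motif and the genes shown were chosen after reading the windows, so these shares are a description.

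Genes of the respiratory chain had a like median but no call. Of 66 tested, 65 were above 0 and 0 were called, with a median of 0.38 that became 0.11 without the length trend; 45 had an unadjusted p under 0.05, as did 23.6% of all genes. Ndufa1, a small subunit of complex I, had 34.8 and 24.6 CPM after conditioning and 56.2 and 40.7 CPM after extinction (log2 0.71 ± 0.16, adjusted p = 0.069). Romo1, a mitochondrial inner membrane protein outside the list, rose (23.1 and 18.3 CPM against 37.0 and 31.7 CPM, 0.73 ± 0.13, adjusted p = 0.049), as did Bola1, another mitochondrial protein (0.73 ± 0.12, adjusted p = 0.041). Both were lost without any 1 S1 or conditioned B6 library and with the length trend taken out.

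Oligodendrocyte markers had 4 of 10 members higher and 0 lower, where 0.266% of all genes were called higher. All 10 were above 0 in both regions. Opalin, a membrane protein of myelinating cells, had 12.4 and 5.92 CPM in S1 FC BLA and CeA and 20.0 and 10.5 CPM after extinction (log2 0.75 ± 0.11, adjusted p = 0.034). Cldn11, the tight junction protein of myelin, had 111 and 50.7 CPM against 181 and 88.7 CPM (0.75 ± 0.13, adjusted p = 0.045), and Mag, the myelin-associated glycoprotein, had 108 and 62.2 CPM against 185 and 99.8 CPM (0.73 ± 0.12, adjusted p = 0.044). Mog rose by 0.60 ± 0.10 (adjusted p = 0.042), and Gal3st1, the sulfotransferase that makes the myelin lipid sulfatide, by 0.74 ± 0.12 (adjusted p = 0.04). For these 5 genes the conditioned library was the lowest and the extinction library the highest S1 library of its region.

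The summed level of the 10 oligodendrocyte markers was 3247 and 1865 CPM after conditioning, 4491 and 2550 CPM after extinction and 3535 and 1818 CPM in naive mice. More oligodendrocytes in the tissue and more of these RNAs per cell cannot be told apart in bulk tissue. The list's median was 0.48, and 0.43 without the length trend, where 0 passed. Precursor markers had a median of −0.17 and microglial markers of 0.03, with 0 called in either. None of the myelin genes passed without any 1 S1 or conditioned B6 library.

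Vascular and connective tissue genes supplied the larger single rises. Cldn5, the endothelial tight junction protein, had 15.2 and 15.5 CPM after conditioning and 29.8 and 29.4 CPM after extinction (log2 0.95 ± 0.16, adjusted p = 0.045), and naive mice had 21.2 and 20.6 CPM. It was the 1 member called among 10 endothelial and mural markers (median 0.27), where 0.266% of all genes were called higher. Pcolce, an enhancer of collagen processing, had 63 and 102 counts against 189 and 264 (1.22 ± 0.16, adjusted p = 0.03). Tnnt2, a cardiac troponin, had 49 and 361 counts against 146 and 687 (0.95 ± 0.16, adjusted p = 0.042). Ptp4a1, a protein phosphatase, had 19.7 and 13.8 CPM against 41.7 and 26.5 CPM (1.01 ± 0.12, adjusted p = 0.027) and, unlike the other rises named, was still called with the length trend taken out (adjusted p = 0.016). Without any 1 conditioned library or extinction S1 library all 4 were lost, and without a naive S1 library all but Ptp4a1.

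The study's title points to phospholipase A2. Of 18 genes tested 0 were called, with a median of 0.03. Pla2g4e, the epsilon cytosolic phospholipase A2, had 24.8 and 57.9 CPM after conditioning and 27.8 and 50.4 CPM after extinction, with a difference of −0.02 ± 0.18 (adjusted p = 0.95). Pla2g7 had 70.6 and 82.1 CPM against 74.3 and 75.9 CPM, and the cannabinoid receptor gene Cnr1 had 345 and 177 CPM against 304 and 160 CPM (log2 −0.17 ± 0.08, adjusted p = 0.25). Among 27 endocannabinoid and eicosanoid genes 1 rose, where 0.266% of all genes were called higher. This was Ptgds, the prostaglandin D2 synthase that meninges and oligodendrocytes also make. It had 111 and 63.2 CPM against 196 and 90.4 CPM (0.67 ± 0.11, adjusted p = 0.044). Its log2 differences in B6 mice were larger, 1.01 in BLA and 0.69 in CeA, against 0.83 and 0.52 in S1 mice. In S1 mice Ptgds was not called with the length trend taken out (adjusted p = 0.14), nor without any 1 S1 or conditioned B6 library.

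Other lists had 1 call or none. Tnr, the matrix glycoprotein tenascin-R of perineuronal nets, was the 1 member lower among 20 perineuronal net and matrix genes, where 0.865% of all genes were. It had 75.2 and 76.6 CPM after conditioning and 10.96 and 14.05 CPM after extinction (log2 −2.60 ± 0.45, adjusted p = 0.045; 0.057 with the length trend taken out), and was lost without any 1 S1 or conditioned B6 library. Acan, the main net proteoglycan, had 2.86 and 4.77 CPM against 1.98 and 3.40 CPM (adjusted p = 0.12). Neuropeptide and receptor genes had 0 of 37 called and a median of 0.07, with Oprm1, the mu opioid receptor, at 2.31 and 7.63 CPM against 0.28 and 0.98 CPM (log2 −2.97 ± 0.83, adjusted p = 0.09). Listed histone and DNA modifying enzyme genes had 0 of 33 called and a median of −0.33, which was 0.01 without the length trend. The histone demethylase gene Kdm7a, not on the list, was called lower (log2 −0.75 ± 0.11, adjusted p = 0.034). It was not called with the length trend taken out (adjusted p = 0.24). Synaptic adhesion (22 genes, median −0.21), vesicle release (24, −0.09), circadian clock (18, −0.10) and chaperone genes (26, 0.08) had 0 called each. These counts are for the listed members only. Tenm2, Il1rapl1, Mdga2 and Cntnap5c, adhesion genes on no list, were called lower. Of these, Cntnap5c alone was still called with the length trend taken out.

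**Figure D3:**
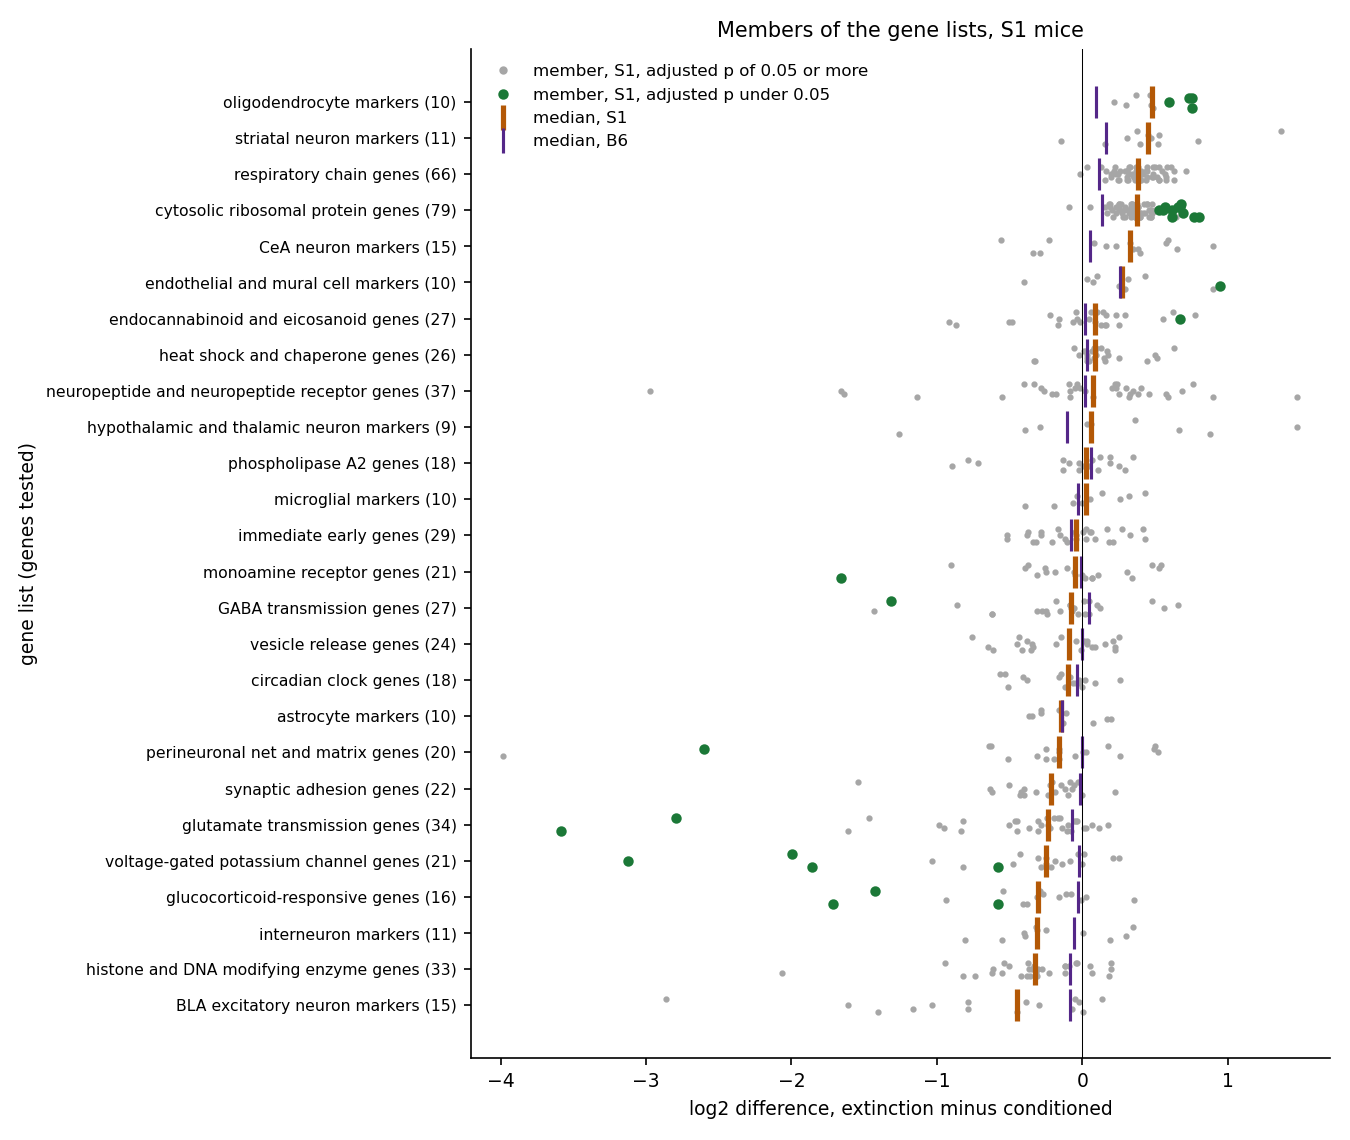
Log2 difference of each tested member of 26 gene lists in S1 mice, extinction minus conditioned over both regions; green points passed an adjusted p of 0.05, grey points did not, and the orange and purple bars are the list's median in S1 and B6 mice. Ribosomal protein and oligodendrocyte lists hold most of the green points on the right, and receptor and channel lists those on the left.

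The called genes shared length and base composition, which the comparison did not use. The median transcript length was 6947 bases among the 143 falls, 1318 bases among the 44 rises and 2793 bases among all genes tested. The medians of genomic span were 110650, 3957 and 21589 bases, and those of GC content 43.7%, 57.2% and 50.4%, in the same order. With the genes cut into 8 bins by transcript length, the median S1 difference ran from 0.27 in the shortest bin (up to 1196 bases) to −0.32 in the longest (from 5587 bases). The longest bin held 79 of the 143 falls and 0 rises, and the 2 shortest bins held 38 of the 44 rises. Across genes the Spearman correlation with length was −0.48 in S1 BLA, −0.43 in S1 CeA and −0.41 in B6 BLA, but 0.12 in B6 CeA; genes are not independent replicates.

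Taking the length trend out changed some groups more than others. Grin2b, Grin2a, Kcnh7, Lnpep, Dgkh, Tmem245, Hif3a, Zbtb16 and Klf9 stayed called, with Grin2b at −3.25 (adjusted p = 0.00059), while the ribosomal and myelin genes did not. With GC content taken out as well, 40 genes were lower and 4 higher, and Gabrb1 (adjusted p = 0.052), Klf9 (0.058), Kcnq3 (0.055), Zbed6 (0.055) and Kcnma1 (0.065) were no longer called. Rn45s was 3.41-fold lower in S1 Ext BLA than in S1 FC BLA and 34.0-fold lower in S1 Ext CeA than in S1 FC CeA, and leaving Rn45s out of the counts left the same 187 genes called. The part of the Rn45s difference in the length trend was not tested, and extinction and the deposited table cannot be told apart.

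**Figure D4:**
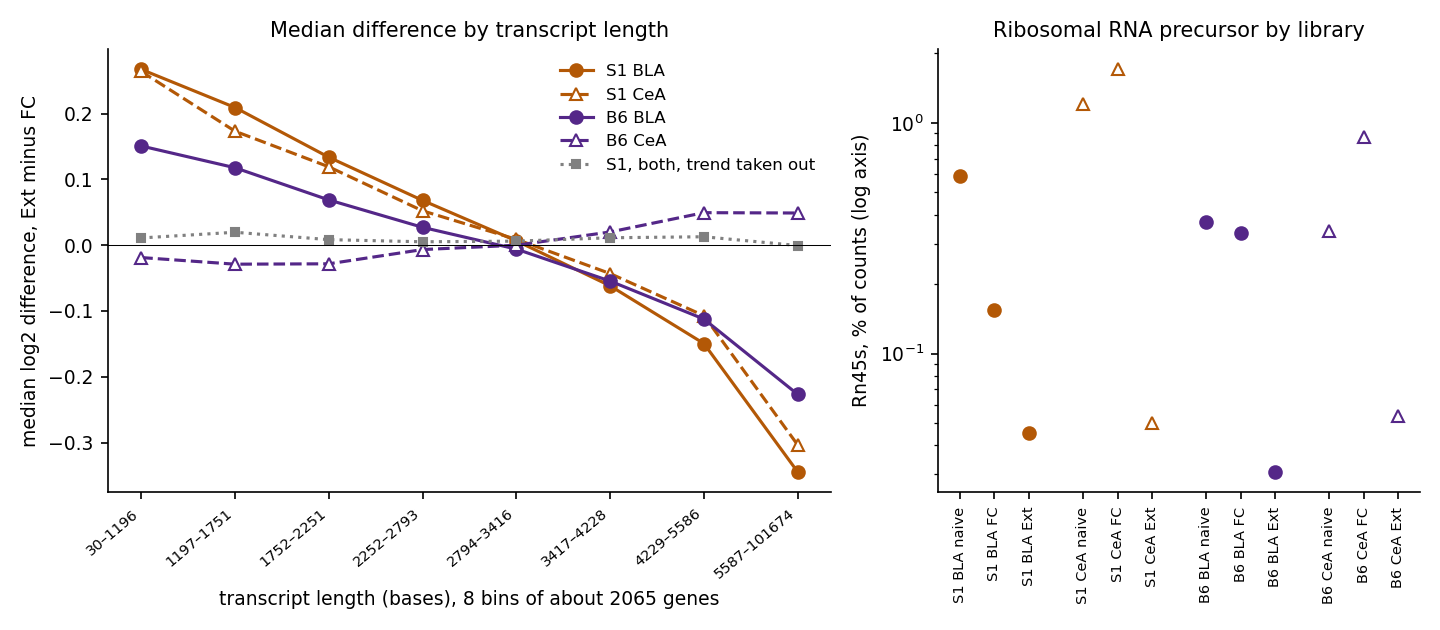
Left, median log2 difference (extinction minus conditioned) in 8 bins of transcript length for each strain and region, with the S1 median after the trend was taken out in grey; right, percent of counts from Rn45s in each library on a log axis. The S1 lines and B6 BLA fall from the shortest to the longest bin while B6 CeA does not, and the 4 extinction libraries have the lowest Rn45s shares.

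The same comparison in B6 mice contrasts other libraries, but it shares the fit and its estimate of spread with the S1 comparison. It gave 0 calls of 16523 (0%) and 662 genes at an unadjusted p under 0.05, against 3907 in S1 mice. The S1 falls were mostly lower in B6 mice too: 128 of the 143 were lower in both B6 regions and 0 were higher in both, where 23.6% of all genes were lower in both. Of the 44 rises 38 were higher in both B6 regions, against 23.2% of all genes. The B6 libraries entered the spread behind the S1 calls, so these shares are not independent of how the genes were chosen. The median B6 difference was −0.30 over the falls and 0.27 over the rises, against −0.86 and 0.67 in S1 mice, whose own values chose these genes. Lnpep had 21.7 and 13.3 CPM in B6 FC BLA and CeA and 3.62 and 4.85 CPM after extinction, so the extinction libraries of the strains lay close together while the conditioned S1 libraries were the highest. Grin2a showed the same order, with 9.85 and 2.92 CPM in conditioned B6 mice and 3.07 and 1.84 CPM after extinction.

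By edgeR the difference between the strains' changes passed for 0 genes (0%), with 748 at an unadjusted p under 0.05, and DESeq2 called 13. The smaller B6 changes are therefore not shown to differ from the S1 changes gene by gene. For Grin2b the S1 change exceeded the B6 change by −1.52 ± 0.28 and for Tmem245 by −2.22 ± 0.34 (adjusted p = 0.85 for both). Tmem87a lay on the other side: it had 45.9 and 57.3 CPM in conditioned and 44.6 and 52.1 CPM in extinguished S1 mice, but 38.9 and 44.5 CPM against 19.6 and 25.7 CPM in B6 mice (0.80, adjusted p = 0.85).

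Fitted by region, where each S1 library has its own mean and the spread comes from B6 mice alone, each call sets 1 library against 1 and assumes that S1 libraries vary like B6 libraries. On that assumption 3 genes were lower in the BLA (0.0182%) and 1 was lower in the CeA (0.00605%). Grin2b was called in both (log2 −3.42, adjusted p = 0.03 in BLA; −3.73, adjusted p = 0.038 in CeA). The other BLA calls were Tet2, a DNA demethylase, with 56.1 CPM in S1 FC BLA and 2.90 CPM in S1 Ext BLA (−4.27, adjusted p = 0.034), and Gm3002, a predicted gene of a family of near-identical copies. In the CeA Tet2 had 84.0 CPM after conditioning and 53.5 CPM after extinction. These counts grew when 1 B6 library was left out, to between 7 (without B6 naive BLA) and 245 (without B6 Ext BLA) in the BLA and between 16 and 245 in the CeA, in the same fits.

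The difference between the regions passed for 0 genes by edgeR (0%), with 325 at an unadjusted p under 0.05. The smallest p was that of the predicted gene Gm3002 (BLA 9.33 to 0 CPM, CeA 8.72 to 8.22 CPM, adjusted p = 0.056). Among genes open to the naming rule, the smallest belonged to Slc24a2, Tet2 and the zinc finger gene Zscan26 (adjusted p = 0.34 for each). Slc24a2, a sodium-calcium exchanger, went from 149 to 235 CPM in the BLA and from 125 to 31.4 CPM in the CeA. Zscan26 went from 101 to 82.7 CPM in the BLA and from 31.2 to 115 CPM in the CeA. Piezo2, a mechanosensitive channel, had 283 counts in S1 FC BLA and 186 in S1 Ext BLA but 148 and 0 in the CeA (adjusted p = 0.34). Tspan14 and Zfp266 had adjusted p of 0.51.

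Markers of neighbouring cells moved between the libraries of both regions. The 15 CeA neuron markers had a summed level of 903 CPM in S1 FC BLA, 1254 CPM in S1 Ext BLA and 888 CPM in naive S1 BLA. The summed level of 15 BLA excitatory markers was 2326 CPM in S1 FC CeA, 1713 CPM in S1 Ext CeA and 1817 CPM in naive S1 CeA, and 7246 and 6036 CPM in the conditioned and extinguished BLA. The 11 striatal markers had 842 and 2128 CPM after conditioning (BLA and CeA) and 962 and 2865 CPM after extinction, with Adora2a, an adenosine receptor gene, at 25.2 and 153 CPM against 43.5 and 265 CPM. None of these lists had a called member. Their part in the calls above was not tested.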

How the data were processed

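Polyadenylated RNA of BLA and CeA was extracted with RNeasy columns and sequenced from TruSeq Stranded mRNA libraries, per the labels' protocols. The submitters' processing notes name StringTie, and mm10 is the build per the file headers; aligner and strand use in counting: not given in the sources used here. Read counts were deposited as raw whole numbers for each transcript and were summed per Gene_ID over 36779 transcripts into 24531 genes. The authors also deposited FPKM per gene, scaled for length and library size, and transcript lengths in bases. A count column of the gene table that matched no sample (1 in all) was not used.

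Counts were tested with edgeR 4.0.16 (R 4.3.3, trimmed mean of M values, filterByExpr) over all 12 libraries, with a mean for each strain and condition and a region term within strain (4 residual degrees of freedom), and Benjamini-Hochberg adjustment over 16523 genes. Fits by region gave each S1 library its own mean (2 residual degrees of freedom). With 1 library per group, p-values measure spread around the additive model between libraries, not between mice. Levels are CPM; standard errors (SE) derive from the log2 fold change and F. DESeq2 1.42.0 and limma 3.58.1 on log2(FPKM + 1) were alternatives. The length trend was a lowess curve (span 0.3) of log2 CPM on transcript length per library. Fits were tested on simulated data.

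Named were the 12 largest changes in each direction with a mean of at least 1 CPM and the same sign in both regions, predicted genes left out, the 3 smallest p-values per direction where nothing passed, and members of 32 lists. Members and lists were chosen with earlier results of these data known. Some genes that the rule or lists chose are not reported here.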

Additional observations from a re-analysis of the deposited data

Results flagged for a closer look

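For 3 genes both S1 regions moved one way and both B6 regions the other between the conditioned and the extinction libraries, and none passed the test of the strain difference (adjusted p = 0.85 each). Over all genes 1082 of 16523 (6.55%) moved in opposite directions in this way. Hbb-b2, a β-globin gene with near-identical copies, differed by 1.71 between the strains' log2 changes, with 9.98 and 10.4 CPM in conditioned and 15.1 and 11.3 CPM in extinguished S1 mice, against 32.2 and 38.0 CPM and 15.8 and 11.5 CPM in B6 mice (BLA and CeA). Dnajb6, a J-domain chaperone, differed by −1.28, with 151 and 116 CPM against 98.2 and 78.4 CPM in S1 mice and 104 and 77.4 CPM against 168 and 124 CPM in B6 mice. Rsc1a1, a regulator of solute carriers, differed by −2.73, with 6.95 and 3.76 CPM against 3.89 and 1.74 CPM in S1 mice and 0.927 and 0.925 CPM against 2.98 and 3.45 CPM in B6 mice.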

How the results depend on the processing

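The 187 genes called in S1 mice over both regions became 66 with no filter on low counts, 1387 by DESeq2 (519 higher, 868 lower), 10 by limma on log2(FPKM + 1), 59 with the length trend taken out, 3232 in a fit of the 4 S1 libraries alone (1424 higher, 1808 lower; 1 residual degree of freedom), 47 without the naive libraries, 1099 with a region-by-condition term and 44 with length and GC trends taken out, an alternative chosen after seeing the data. DESeq2 size factors (189) and leaving out Rn45s (187) kept the count. Leaving out 1 library gave 1 to 2012 calls; a group left with 1 library was assumed to vary like the others. The strain difference, with 0 calls, gave 13 by DESeq2, 2 by limma, 2 without the naive libraries, 1 with length and GC taken out and 0 to 15 without 1 library. In the BLA the 3 calls became 0 with no filter and 7 to 245 without 1 B6 library. In the CeA the 1 call became 0 with no filter, 7 with the length trend taken out and 16 to 245 without 1 B6 library. The region difference, with 0 calls, gave 2 with the length trend taken out and 2 to 33 without 1 B6 library. The cause of these shifts was not tested. None of the 46 called genes that the naming rule or the lists chose changed sign in any of these fits. The replicate numbers are all 1, so libraries could not be paired by number. They were paired by region, through the region term. Depth limits genes such as Kcng3 and Mir6236, which had under 10 counts in each extinction library.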
